A study of Mus musculus with 12 samples.

Results

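The genes described here encode subunits of the mitochondrial respiratory chain and of ATP synthase. They were taken as every gene whose symbol in the probe annotation begins with Ndufa, Ndufb, Ndufc, Ndufs or Ndufv, with Uqcr, with Cox4 to Cox8 or with Atp5, and that has a probe set, a group of array oligonucleotides for 1 transcript, naming it alone. This gave 86 genes, measured by 170 probe sets, among 18194 genes in all. Of them 42 belong to complex I, 8 to complex III, 19 to complex IV and 17 to complex V, the ATP synthase. By role, complex I had 6 core subunits, 28 accessory subunits and 8 assembly factors. Complex III had 3 core and 5 accessory subunits, complex IV had 10 general subunits, 8 isoforms known mainly from particular tissues and 1 assembly factor, and complex V had 5 F1, 4 stalk and 8 Fo subunits.

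In the inner mitochondrial membrane complex I takes electrons from NADH, complex III passes them from ubiquinol to cytochrome c, and complex IV hands them to oxygen. These complexes pump protons, and ATP synthase makes ATP as the protons flow back. Nearly all their subunits are encoded in the nucleus and must be made in matching amounts with a few subunits encoded in mitochondrial DNA. Astrocytes, the glial cells measured here, draw much of their ATP from glycolysis but also keep an active respiratory chain.

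Cultured astrocytes expressing eGFP, from hippocampus and cortex of C57Bl/6j mice, were kept for 22 h on a mouse brain section, detached with trypsin and collected by suction, and their RNA was read on 12 one-colour Affymetrix arrays. The sections came from APdE9 mice, which carry APPSwe and PS1-dE9 transgenes each under a mouse prion protein promoter, or from wild-type littermates. The cells were neonatal (3 d by the age label, while the growth protocol gives 2 days) or adult (6 to 8 weeks), which makes 4 groups of 3 arrays: neonatal or adult cells on wild-type or APdE9 sections. RNA was taken from pools (n = 3 samples), 1 pool to an array, and the p-values measure the spread between these pools, which the labels call biological replicates. In all 4 groups the cells collected carried eGFP, and cultures were shaken beforehand to remove microglia. A Percoll step, DMEM/F12 and G5 supplement were used for adult cells and plain DMEM for neonatal cells, so that medium, isolation and age cannot be told apart.

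The deposited values were centred, with a median of 0 over the 12 arrays for each probe set, so they hold differences between arrays and no level of a gene. They are taken as log2 signals, a scale that the labels do not state. A gene's value is the mean of its probe sets, and a gene was called changed at an adjusted p under 0.05 in limma, fitted over all 18194 genes. Differences on the log2 scale are given with their standard error, and each comparison of groups rests on 3 arrays against 3. Array medians over all probe sets lay between -0.0385 and 0.0341. In bulk RNA, fewer cells of a type and less RNA per cell cannot be told apart. The labels report GFAP staining in nearly all cells of both kinds of culture. Defining astrocyte markers were far lower in the adult cells: on wild-type sections 9 of 12 fell, among them Gfap at -4.24 ± 0.11 and Aqp4 at -3.73 ± 0.080, and 2 rose. The mean of the 12 markers was 0.97, 0.97 and 0.91 on the neonatal arrays with wild-type sections and -0.62, -0.63 and -0.64 on the adult ones. On APdE9 sections it was 0.45, 0.59 and 0.49 on the neonatal and -0.64, -0.63 and -0.66 on the adult arrays. Of 15 microglia markers 14 fell in adult cells on either section, with a median of -4.49 on wild-type and -3.63 on APdE9 sections. The values are centred, so whether a marker was absent could not be read from them.

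The first question was whether a section from the APdE9 brain changed these genes in adult cells. It did in 11 of the 86: 9 rose and 2 fell. Over all genes 8.26% rose and 9.4% fell, against 10.5% and 2.33% of the 86. The largest rises were in Uqcrc1, a core subunit of complex III, and Ndufs7, the complex I core subunit that holds the last iron-sulfur cluster before ubiquinone. The largest fall was in Cox6b2, the testis isoform of complex IV subunit 6B. The median difference of the 86 genes was 0.18, against 0.049 over all genes, and 67 of 86 (77.9%) lay above 0 against 59.95% of all genes.

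**Figure D1:**
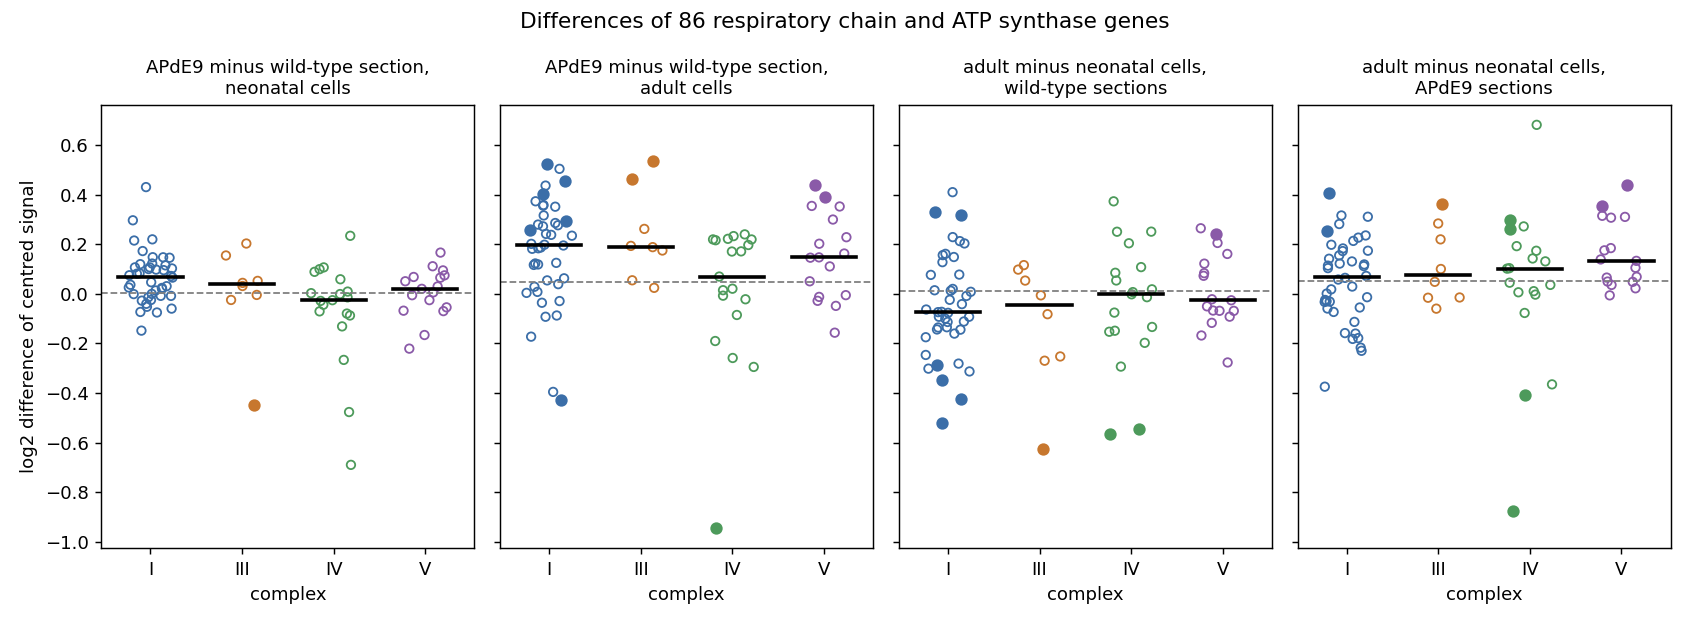
Log2 difference of each of the 86 genes (points, y axis) by complex (x axis) in 4 comparisons of 3 arrays against 3; filled points passed an adjusted p of 0.05 in limma, open points did not, black bars are medians of the complex and the dashed line is the median of all 18194 genes. In adult cells the medians of complexes I, III and V, 0.20, 0.19 and 0.15, lie above the dashed line at 0.049, and that of complex IV is 0.070.

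Uqcrc1 read -0.33, -0.36 and -0.13 on the 3 adult arrays with wild-type sections and 0.033, 0.46 and 0.30 on those with APdE9 sections. The groups did not overlap, and the difference was 0.54 ± 0.11, a fold of 1.45 (limma adjusted p = 0.00463). Ndufs7 read -0.52, -0.41 and -0.20 on wild-type and 0.043, 0.29 and 0.11 on APdE9 sections. Its groups did not overlap either, with a difference of 0.52 ± 0.11 (adjusted p = 0.00636). Cox6b2 read -0.038, -0.00095 and 0.14 on wild-type and -1.05, -0.61 and -1.07 on APdE9 sections. All 3 APdE9 arrays were far below the wild-type ones, at 0.519 times their signal and a difference of -0.95 ± 0.15 (adjusted p = 0.000939). These 3 calls were kept under all 24 other settings and array subsets tried.

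The other 8 calls were smaller or less stable. Ndufaf8, which stabilises a complex I assembly factor, was at 0.46 ± 0.11 (adjusted p = 0.0125), and the matrix-arm accessory subunit Ndufa12 at 0.40 ± 0.10 (adjusted p = 0.0186). Ndufs4, an accessory subunit whose loss destabilises the matrix arm, was at 0.26 ± 0.075 (adjusted p = 0.033), but its 4 probe sets ranged from -0.12 to 0.65. Ndufb3 of the membrane arm was at 0.29 ± 0.092 (adjusted p = 0.0456). The small complex III subunit Uqcr11 was at 0.47 ± 0.14 (adjusted p = 0.037). In ATP synthase the calls were Atp5l and Atp5k, subunits g and e at the dimer interface, at 0.44 ± 0.14 (adjusted p = 0.0469) and 0.39 ± 0.13 (adjusted p = 0.05). Atp5k was called because its adjusted p lay just under the threshold before rounding. Ndufv3, an accessory subunit beside the flavoprotein of complex I, fell by 0.43 ± 0.11 (adjusted p = 0.014). Uqcr11 read -0.61, -0.26 and -0.23 on wild-type and 0.067, 0.16 and 0.078 on APdE9 arrays, and Atp5l -0.51, -0.13 and -0.11 and 0.21, 0.28 and 0.075. In both, wild-type array 1 lay far below the rest. In none of the 8 did the 3 wild-type and 3 APdE9 arrays overlap. Genes picked by such a call tend to be separated, so this adds no support to the calls. Here and in the other comparisons the share of all genes without overlap was not computed.

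Many of these calls were lost when 1 array was left out. How many of all genes were called in the same refits is not given here. Without adult wild-type array 1 the median of the 86 genes was 0.12 in place of 0.18. The count of 11 became 4 without that array, without adult wild-type array 2 it was 6, and without the APdE9 arrays 1, 2 and 3 it was 6, 5 and 7. It was also 6 without neonatal wild-type array 2, which enters only through the shared estimate of spread. With only the arrays numbered 2 and 3, chosen after the data were seen, 3 calls were left: Uqcrc1, Ndufs7 and Cox6b2. With the whole table median-centred or quantile-normalized the count was 6, with 4 rises and 2 falls, and with array weights it was 24, of which 21 were rises. Without adult wild-type array 1, adjusted p rose to 0.175 for Atp5k, 0.167 for Atp5l, 0.157 for Ndufb3, 0.136 for Uqcr11, 0.0764 for Ndufa12 and 0.0529 for Ndufaf8. With the probe set of the largest SD Ndufa12 was at 0.21 (adjusted p = 0.577). That of Ndufv3 was 0.0576 without adult wild-type array 3, and that of Ndufs4 was 0.125 without adult wild-type array 2.

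Most of the 86 genes shared the deviation of their array from the group. The median of the 86 was -0.15, -0.019 and 0.036 on the 3 neonatal arrays with wild-type sections and 0.033, -0.092 and 0.030 on those with APdE9 sections. In adult cells it was -0.18, -0.077 and 0.013 on wild-type and 0.030, 0.093 and 0.073 on APdE9 sections. Array 1 was lowest in both wild-type groups and in adult cells on APdE9 sections, and array 2 in neonatal cells on APdE9 sections. On neonatal wild-type array 1, 89.5% of the 86 genes were below their group mean, and on adult wild-type array 1 83.7%. On neonatal APdE9 array 2 and adult APdE9 array 1 it was 77.9% each. Over all genes the shares on these arrays were, in the same order, 53.7%, 50.7%, 47.2% and 58.2%. On adult wild-type array 1 the medians of complexes I and III were -0.24 and -0.25, that of ATP synthase -0.13 and that of complex IV -0.066.

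**Figure D2:**
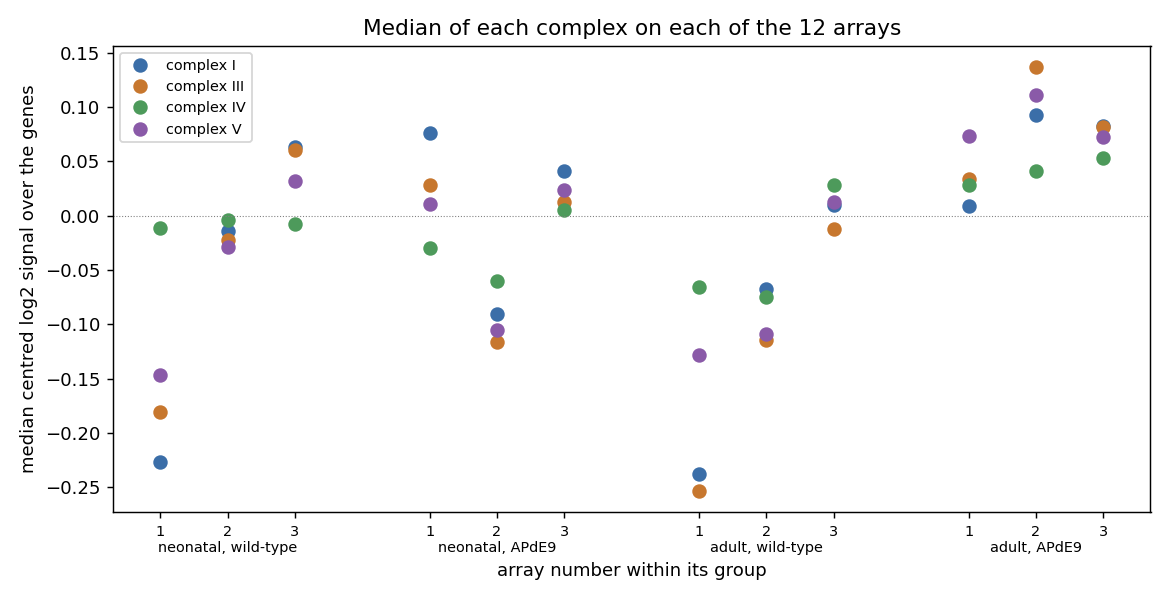
Median centred log2 signal over the genes of each complex (y axis) on each of the 12 arrays, numbered 1 to 3 within their group (x axis). Array 1 of both wild-type groups has the lowest medians of complexes I and III, and all 3 arrays of adult cells on APdE9 sections lie above 0.

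Targets of the hypoxia response, genes induced when oxygen is short, ran differently over the same adult arrays. Their mean over 19 genes was 0.54, 0.29 and -0.27 on wild-type and -0.13, -0.36 and -0.44 on APdE9 sections, highest on the array where the 86 genes were lowest. Of the 19, 7 fell and 1 rose, with a median of -0.47: Adm, a vasodilator peptide gene, was at -2.11 ± 0.25 and Pdk1, a kinase that keeps pyruvate out of the mitochondrion, at -0.85 ± 0.17. Of 19 cell cycle genes 14 fell and none rose, with a mean of 0.12, 0.53 and 0.66 on wild-type and -0.76, -0.83 and -0.64 on APdE9 arrays. Among other cell types, 6 of 15 microglia markers rose and 1 fell, with a mean of -2.10, -2.37 and -2.13 on wild-type and -1.57, -1.56 and -1.58 on APdE9 arrays. Of 8 oligodendrocyte markers 5 rose and none fell, with a mean of -0.52, -0.56 and -0.59 on wild-type and 0.030, 0.16 and 0.10 on APdE9 arrays. Of 7 fibroblast and meningeal markers 1 rose and 3 fell, with a mean of 0.71, 0.79 and 0.95 on wild-type and -0.0020, 0.22 and 0.46 on APdE9 arrays. Of 10 neuron, 12 endothelial and mural and 8 muscle markers 2 each fell and none rose. Of the 12 astrocyte markers 5 rose and 3 fell, among them Sox9 at 0.61 ± 0.13, S100b at 0.61 ± 0.12, Slc4a4 at -0.85 ± 0.090 and Gjb6 at -0.64 ± 0.12. Their part in the differences of the 86 genes was not tested.

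In neonatal cells the section changed 1 of the 86 genes: Uqcrc1 fell. Over all genes 1.21% rose and 2.55% fell. Uqcrc1 read 0.33, 0.27 and 0.46 on wild-type and -0.17, -0.093 and -0.033 on APdE9 sections. The groups did not overlap, and the difference was -0.45 ± 0.11 (limma adjusted p = 0.0431). The call was lost in 9 of the 12 fits that left out 1 array, with an adjusted p of up to 0.143 without neonatal APdE9 array 1, and its log2 difference stayed between -0.49 and -0.37 over all settings. The other 85 genes were not called, 6 of the 86 had an unadjusted p under 0.05, and for 74 the 95% interval of the difference lay within 0.5 log2 of 0. The median of the 86 genes was 0.028, against 0.0018 over all genes, and it was -0.027 without neonatal wild-type array 1 and -0.058 with only the arrays numbered 2 and 3. In the same comparison 6 of 12 astrocyte markers fell and none rose, with a median of -0.42, 2 of 15 microglia markers rose and none fell, and 3 of 19 cell cycle genes fell and none rose. Of 8 oligodendrocyte markers 2 rose and 1 fell, among them Mbp at 1.80 ± 0.20 and Cnp at -0.59 ± 0.079. Of 7 fibroblast and meningeal markers 2 rose and 1 fell, among them Lum at 0.94 ± 0.17 and Col1a1 at -0.82 ± 0.16. Of 12 endothelial and mural markers Rgs5 alone was called, at 0.66 ± 0.082, and of 19 hypoxia targets 1 rose and none fell. Their part in the fall of Uqcrc1 was not tested.

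Uqcrc1 therefore moved in opposite directions in neonatal and adult cells, and the difference of the section effects was tested directly. It was 0.99 ± 0.16, with a 95% interval of 0.65 to 1.33 (adjusted p = 0.00181), and was kept under all 23 other settings. Ndufv3 was the other gene called there, at -0.55 ± 0.15 (adjusted p = 0.0369). It read -0.23, -0.022 and 0.022 on wild-type and -0.11, 0.084 and 0.16 on APdE9 sections in neonatal cells, which overlap. In adult cells it read 0.25, 0.14 and 0.38 on wild-type and -0.31, -0.14 and -0.065 on APdE9 sections, all 3 APdE9 arrays being lower. The Ndufv3 call was lost in 8 of 12 fits without 1 array, with an adjusted p of up to 0.0843 without adult wild-type array 3. Over all genes 5.19% had a higher and 4.88% a lower section effect in adult cells, against 1 and 1 of the 86. Cox6b2 was at -0.68 ± 0.21 (adjusted p = 0.0673) and did not pass. In this test 6 of 12 astrocyte markers were higher and none lower, with a median of 0.48 and Aldoc at 1.39 ± 0.11 and Aqp4 at 1.32 ± 0.11. Of 19 hypoxia targets 1 was higher and 7 lower, of 19 cell cycle genes 5 were lower, and of 7 fibroblast and meningeal and 12 endothelial and mural markers 3 each were lower, with none higher in these last 3 lists. Of 15 microglia markers 2 were higher and 1 lower, and of 8 oligodendrocyte markers 2 were higher and none lower. The part of these lists in the Uqcrc1 and Ndufv3 differences was not tested.

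**Figure D3:**
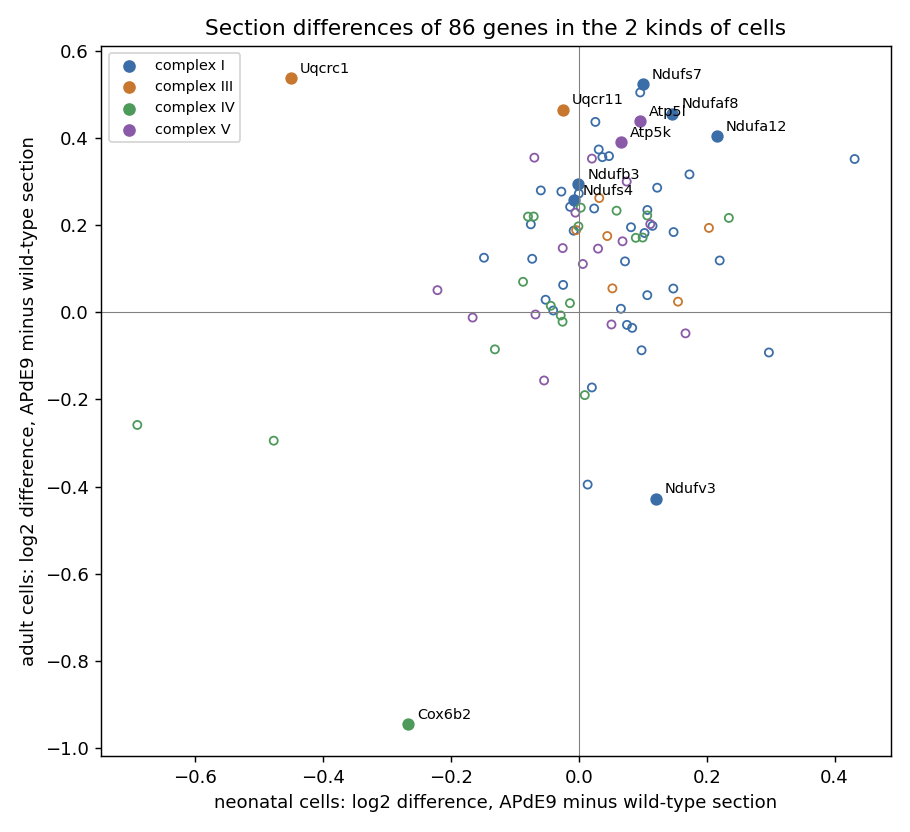
Difference between APdE9 and wild-type sections for the 86 genes in neonatal cells (x axis) and in adult cells (y axis), in log2, coloured by complex; filled and named points were called in at least 1 of them. The groups share no array. Uqcrc1 lies at -0.45 and 0.54, and Cox6b2 lowest at -0.95 on the adult axis.

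Uqcrc1 is a large core protein of complex III, and its partners had smaller values. Its counterpart Uqcrc2 was at 0.16 ± 0.076 in neonatal and 0.025 ± 0.076 in adult cells, and Uqcrfs1, the Rieske iron-sulfur protein, at -0.0041 ± 0.11 and 0.19 ± 0.11, none called. Cyc1, the cytochrome c1 of the same complex, lies outside the symbol rule. It was not called for the section in neonatal cells and rose in adult cells, at 0.53 ± 0.079 (adjusted p = 0.000596), and its difference of the section effects was 0.67 ± 0.11 (adjusted p = 0.00252). With age on wild-type sections Cyc1 fell by 0.49 ± 0.079 (adjusted p = 0.000448). Uqcrc1 was measured by 1 probe set, as were 38 of the 86 genes, so no second probe set checks it.

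Stretches near the transcription start are shown for 7 members called above or in the age comparisons that follow. Factors that bind there are known to run respiratory genes. The 7 are not the firmest calls: for the section in adult cells those of Atp5k and Uqcr11 were lost under 15 and 10 of 24 settings. They come from the RefSeq promoter table on build GRCm38.p6, which matched 71 of the 86 genes with 250 bases before and 50 after the start. Capitals mark letters matching 1 of 4 motifs: GCGCATGCG of nuclear respiratory factor NRF1, CCGGAAG of ETS factors, AAGATGGCG of YY1 and ACGTG of the hypoxia response. Each strand was searched, and the NRF1 letters read nearly alike on both, so 1 site can match each. The Uqcrc1 stretch covers bases 21 to 50 after the start, and the others the 120 bases before it.
Uqcrc1, chr9:108936668-108936697, plus strand: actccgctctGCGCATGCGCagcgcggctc
Uqcr11, chr10:80406822-80406941, minus strand: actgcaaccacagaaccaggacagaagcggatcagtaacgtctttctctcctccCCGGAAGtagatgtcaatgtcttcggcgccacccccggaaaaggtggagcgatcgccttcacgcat
Atp5k, chr5:108434400-108434519, minus strand: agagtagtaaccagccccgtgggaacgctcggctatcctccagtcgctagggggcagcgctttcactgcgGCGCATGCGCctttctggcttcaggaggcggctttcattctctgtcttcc
Atp5j, chr16:84834977-84835096, minus strand: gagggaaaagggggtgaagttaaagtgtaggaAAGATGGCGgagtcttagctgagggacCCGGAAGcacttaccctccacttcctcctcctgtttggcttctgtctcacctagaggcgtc
Ndufv3, chr17:31519995-31520114, plus strand: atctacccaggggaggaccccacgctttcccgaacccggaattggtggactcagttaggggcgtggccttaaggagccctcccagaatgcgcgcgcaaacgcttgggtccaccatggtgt
Cox6b2, chr7:4753095-4753214, minus strand: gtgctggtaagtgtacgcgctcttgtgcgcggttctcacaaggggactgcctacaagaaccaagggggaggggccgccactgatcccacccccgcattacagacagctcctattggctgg
Cox7a1, chr7:30184051-30184170, plus strand: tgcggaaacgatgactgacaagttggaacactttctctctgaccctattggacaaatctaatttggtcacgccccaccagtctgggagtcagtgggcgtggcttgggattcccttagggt

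Within the stretches shown, which were cut at different places, Uqcrc1 and Atp5k hold the NRF1 letters, Uqcr11 the ETS letters, and Atp5j both the ETS and the YY1 letters. Elsewhere in the 300-base window Uqcr11 also matches NRF1, across the start, and the hypoxia response letters, and Atp5k matches ETS after the start. The stretches of Ndufv3 and Cox7a1 hold none of the 4, but both match the hypoxia response letters after the start, in the part not shown. Cox6b2 has no match in the 300 bases, which says only that these letters are not in this window. Ndufs7, Ndufc2 and Atp5b, with calls kept under all settings, are not shown. In the 300 bases Ndufs7 matches YY1 after the start, and Ndufc2 and Atp5b match none of the 4. Cox6c, whose call with age on wild-type sections was also kept, has no matched promoter. Over the whole window the NRF1 letters stood in 9 of 71 members (12.7%) against 1.95% of 27025 genes, and the YY1 letters in 7 (9.86%) against 1.64%. The ETS letters stood in 17 (23.9%) against 9.93%, and the hypoxia response letters in 18 (25.4%) against 21.8%. A match is a description of the letters and shows no binding.

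With age on wild-type sections, adult cells differed from neonatal cells in 10 of the 86 genes: 7 fell and 3 rose. Over all genes 14.9% rose and 15.2% fell, so fewer of the 86 were called (3.49% and 8.14%). The falls were led by Uqcrc1, by the complex IV subunits Cox6c and Cox7a1 and by Ndufc2 of the complex I membrane arm. The rises were in Ndufv3, in Ndufs1, the largest core subunit of complex I, and in Atp5a1, the alpha subunit of the ATP synthase head. The median of the 86 was -0.046, against 0.012 over all genes, and it was -0.0083 without adult wild-type array 1 and -0.11 without adult wild-type array 3.

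Uqcrc1 went from 0.33, 0.27 and 0.46 on neonatal arrays to -0.33, -0.36 and -0.13 on adult arrays, a difference of -0.63 ± 0.11 (adjusted p = 0.000794). Cox6c went from 0.12, 0.33 and 0.38 to -0.52, -0.29 and -0.051, a difference of -0.56 ± 0.12 (adjusted p = 0.00338). Ndufc2 went from -0.0041, 0.35 and 0.28 to -0.43, -0.24 and -0.27, a difference of -0.52 ± 0.12 (adjusted p = 0.00499). In each of these the adult arrays were all below the neonatal ones. Cox7a1, the isoform of subunit 7A known from heart and skeletal muscle, went from 0.44, 0.70 and 0.45 to -0.040, 0.022 and -0.022, a difference of -0.55 ± 0.13 (adjusted p = 0.00782). These 4 calls were kept under all 24 settings.

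**Figure D4:**
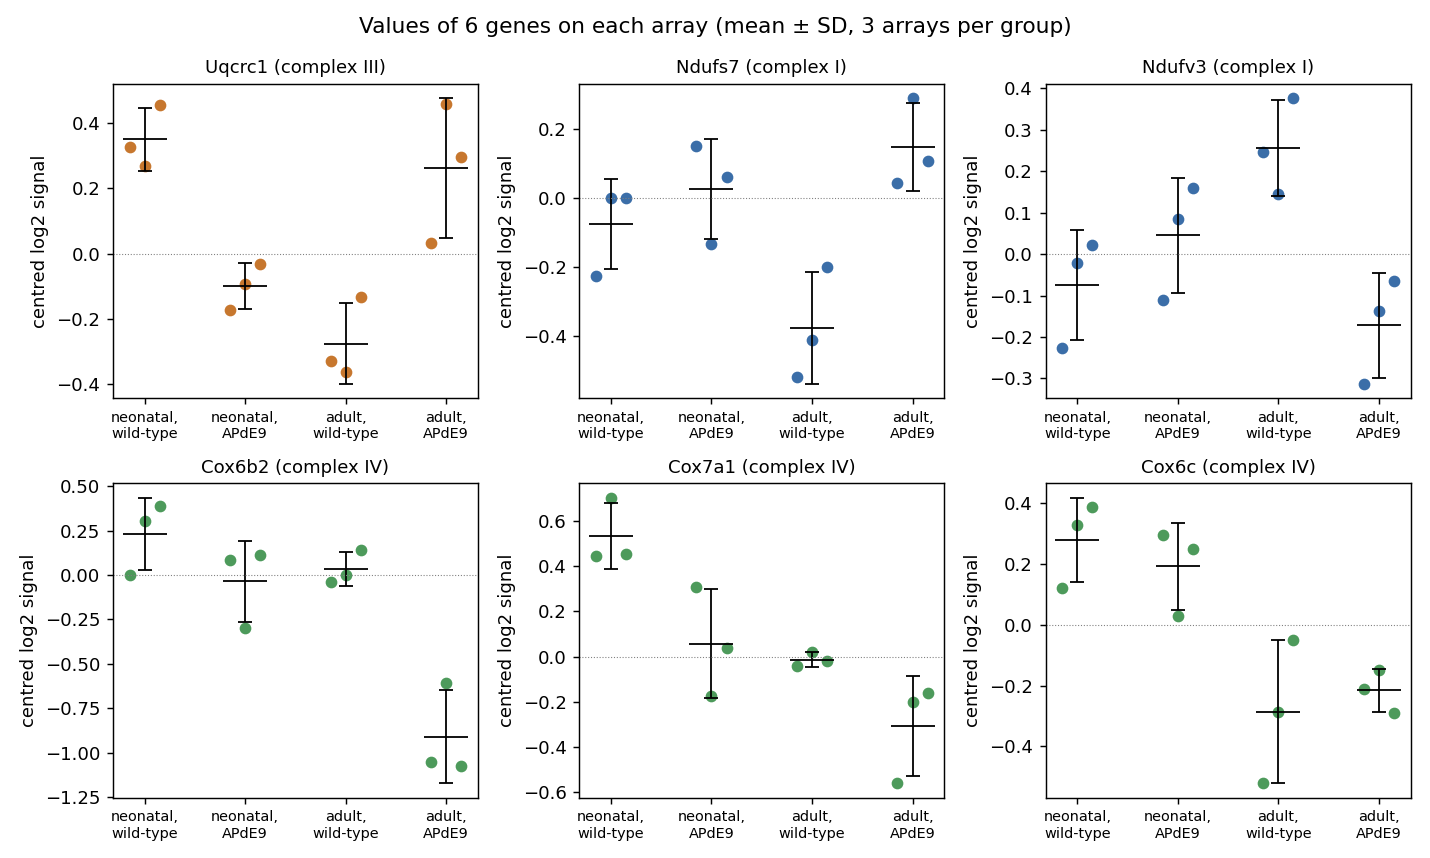
Centred log2 signal (y axis) of 6 genes on each array of the 4 groups (x axis); points are single arrays in the order 1 to 3, black lines and bars the mean ± SD of 3 arrays. Uqcrc1 is highest in neonatal cells on wild-type sections and lowest in adult cells on wild-type sections, and Cox6b2 is low on the 3 arrays of adult cells on APdE9 sections.

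Among the smaller differences with age on wild-type sections, the complex I assembly factor Ndufaf3 was at -0.42 ± 0.14 (adjusted p = 0.0358), and its groups overlapped. Ndufs3, a core subunit of the matrix arm, was at -0.29 ± 0.10 (adjusted p = 0.0384). Ndufv3 was at 0.33 ± 0.11 (adjusted p = 0.0311), Ndufs1 at 0.32 ± 0.093 (adjusted p = 0.0202) and Atp5a1 at 0.24 ± 0.073 (adjusted p = 0.0242), all 3 higher on every adult array. The Atp5a1 rise came from 1 of its 3 probe sets, at 0.76, while the others were at -0.020 and -0.018 (adjusted p = 0.918 and 0.92). Ndufa12 was at -0.35 ± 0.10 (adjusted p = 0.0243), but its 4 probe sets ranged from -0.58 to 0.28, and the probe set with the largest SD put it at 0.28 (adjusted p = 0.402). Without neonatal wild-type array 2 or adult wild-type array 1 the count of 10 became 5 each. With array weights it was 25, and with only the arrays numbered 2 and 3 it was 5. Without neonatal wild-type array 1, adjusted p was 0.0779 for Atp5a1, 0.0883 for Ndufs1 and 0.124 for Ndufv3. Without adult wild-type array 1 it was 0.145 for Ndufaf3, 0.138 for Ndufs3 and 0.106 for Ndufa12.

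On APdE9 sections age went with 9 calls, 7 of them rises. Over all genes 11.7% rose and 11.9% fell, against 8.14% and 2.33% of the 86. The rises included both a catalytic and a stalk subunit of ATP synthase, the flavin-binding subunit of complex I and the common isoform of complex IV subunit 4. The falls were Cox6b2 and Cox6c. The median of the 86 was 0.10, against 0.053 over all genes, and 0.047 without neonatal APdE9 array 2. With the replicate number as a block, which applies because same-numbered arrays deviated together over all genes in this comparison, 14 genes were called, 12 of them rises. Over the 86 genes alone the same-number correlations were 0.046, -0.11 and 0.29.

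Atp5j, coupling factor 6 of the stalk, went from -0.25, -0.16 and -0.061 on neonatal arrays to 0.24, 0.18 and 0.43 on adult arrays, a difference of 0.44 ± 0.10 (adjusted p = 0.00611). Atp5b, the catalytic beta subunit, went from -0.30, -0.20 and -0.25 to 0.084, 0.11 and 0.12, a difference of 0.36 ± 0.078 (adjusted p = 0.00514). Cox6b2 went from 0.083, -0.30 and 0.11 to -1.05, -0.61 and -1.07, a difference of -0.88 ± 0.15 (adjusted p = 0.000935). None of these groups overlapped, and the 3 calls were kept under all 24 settings.

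Uqcrc1 rose with age here, from -0.17, -0.093 and -0.033 to 0.033, 0.46 and 0.30, a difference of 0.36 ± 0.11 (adjusted p = 0.031), although it fell on wild-type sections. Cox4i1 was at 0.30 ± 0.087 (adjusted p = 0.0257), Ndufv1, the flavin-binding subunit, at 0.25 ± 0.071 (adjusted p = 0.0207), and Ndufa4, once assigned to complex I and now to complex IV, at 0.26 ± 0.086 (adjusted p = 0.0441). Cox6c was at -0.41 ± 0.12 (adjusted p = 0.0287), with all adult arrays below the neonatal ones as on wild-type sections. Ndufb8 of the complex I membrane arm was at 0.41 ± 0.10 (adjusted p = 0.0121), but its 2 probe sets gave -0.11 to 0.93, and the one designed on a RefSeq transcript put it at -0.11 (adjusted p = 0.566). The count of 9 became 5 without neonatal APdE9 array 1, without adult APdE9 array 3, with only the 6 arrays compared and with only the arrays numbered 2 and 3. Without adult APdE9 array 2, adjusted p was 0.133 for Uqcrc1 and 0.069 for Ndufv1. It was 0.1 for Cox6c without neonatal APdE9 array 1, 0.0957 for Cox4i1 without neonatal APdE9 array 2 and 0.133 for Ndufa4 without adult APdE9 array 3. Beside the astrocyte and microglia markers given above, markers of other cell types moved with age. On wild-type sections 3 of 7 fibroblast and meningeal markers rose and none fell, with a median of 0.82 and Col1a1 at 4.06 ± 0.16. Their mean was -0.88, -0.50 and -0.032 on the neonatal and 0.71, 0.79 and 0.95 on the adult arrays. On APdE9 sections 2 rose and 1 fell, with a mean of -0.67, -0.53 and -0.22 on the neonatal and -0.0020, 0.22 and 0.46 on the adult arrays. Of 12 endothelial and mural markers 6 rose and 2 fell on wild-type and 4 rose and 2 fell on APdE9 sections, with Cdh5 at 2.25 ± 0.12 and 2.19 ± 0.12. Of 8 oligodendrocyte markers none rose and 2 fell on wild-type, and 2 rose and 2 fell on APdE9 sections, with Olig2 at -3.60 ± 0.23 and -2.78 ± 0.23. Of 10 neuron markers 2 rose and 2 fell on wild-type, and 1 rose and 2 fell on APdE9 sections. Of 19 cell cycle genes 3 rose and none fell on wild-type, and none rose and 10 fell on APdE9 sections. Of 19 hypoxia targets 7 rose and 5 fell on wild-type, and none rose and 7 fell on APdE9 sections. The part of these lists in the age differences was not tested.

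The medians of the complexes are given side by side. In neonatal cells the section medians were 0.069 for complex I, 0.038 for complex III, -0.025 for complex IV and 0.021 for ATP synthase. With age on wild-type sections they were, in the same order, -0.073, -0.044, -0.0015 and -0.026. With age on APdE9 sections they were 0.069, 0.075, 0.10 and 0.13. In the adult section comparison the 6 core subunits of complex I had a median of 0.31 with 1 called higher, its 28 accessory subunits 0.20 with 3 higher and 1 lower, and its 8 assembly factors 0.047 with 1 higher. Of the 10 general complex IV subunits none was called there, with a median of 0.12. The 8 Fo subunits of ATP synthase had a median of 0.18 with 2 higher, and its 5 F1 subunits 0.051 with none. No test was made between complexes.

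The subunits of complex IV that exist as a common and a tissue isoform are taken next, pair by pair. Cox6b1, the common partner of Cox6b2, was at 0.17 ± 0.087 (adjusted p = 0.207) for the section in adult cells, where Cox6b2 fell, and at 0.0066 ± 0.087 (adjusted p = 0.969) with age on APdE9 sections. Cox7a2, the common partner of Cox7a1, was at 0.054 ± 0.12 (adjusted p = 0.806) with age on wild-type sections, where Cox7a1 fell. For the section Cox7a1 was at -0.48 ± 0.13 (adjusted p = 0.0814) in neonatal cells and at -0.29 ± 0.13 (adjusted p = 0.163) in adult cells, both short of the threshold. Cox4i2, an isoform induced by low oxygen in other cells, was at 0.24 ± 0.11 (adjusted p = 0.151) for the section in adult cells beside 0.22 ± 0.087 (adjusted p = 0.107) for Cox4i1. Ndufa4l2, another hypoxia-induced isoform, read 0.80, -0.12 and 0.063 on the adult wild-type arrays, array 1 alone being high, and its section difference was -0.19 ± 0.19 (adjusted p = 0.543).

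Cox6a1 and Cox6a2 were at 0.22 ± 0.12 and 0.23 ± 0.092 for the section in adult cells, Cox8a and Cox8b at -0.022 ± 0.077 and -0.0071 ± 0.15, and none was called in any comparison. Cox7a2l, which helps complexes III and IV join, lay between -0.13 and 0.13 in every comparison. Cox7c had the widest error, with SEs of 0.31: its section difference in neonatal cells was -0.69 ± 0.31 and its age difference on APdE9 sections 0.68 ± 0.31, neither called. The genes most like Cox6b2 over the 12 arrays by Pearson's r were Itih2 (r = 0.965), Fhod3 (r = 0.965) and Ak5 (r = 0.949), correlations that share the low values of the 3 adult APdE9 arrays.

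The redox centres and the catalytic sites lie in core subunits, though not every core subunit holds one. Ndufs1 was at 0.075 ± 0.093 for the section in neonatal and -0.029 ± 0.093 in adult cells, and Ndufv1 at -0.075 ± 0.071 and 0.20 ± 0.071, none called. Of the other complex I core subunits, Ndufv2, which holds an iron-sulfur cluster beside the flavin site, was at 0.37 ± 0.14 (adjusted p = 0.0835) in adult cells, Ndufs8, which carries iron-sulfur clusters on the way to ubiquinone, at 0.36 ± 0.16 (adjusted p = 0.148) and Ndufs3 at 0.27 ± 0.10 (adjusted p = 0.069). Atp5a1 was at -0.054 ± 0.073 for the section in neonatal and -0.16 ± 0.073 in adult cells, and Atp5b at -0.22 ± 0.078 and 0.051 ± 0.078, none called. With age on wild-type sections Ndufv1 was at -0.024 ± 0.071 (adjusted p = 0.859), Uqcrfs1 at -0.25 ± 0.11 (adjusted p = 0.12) and Atp5b at 0.084 ± 0.078 (adjusted p = 0.501). With age on APdE9 sections Ndufs1 was at 0.21 ± 0.093 (adjusted p = 0.125), Uqcrfs1 at -0.059 ± 0.11 (adjusted p = 0.762) and Atp5a1 at 0.14 ± 0.073 (adjusted p = 0.206).

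Of the 86 genes 24 were called in at least 1 of the 5 tests and 62 in none. The same share over all genes was not computed. For the section in neonatal and adult cells 1.16% and 12.8% of the 86 were called, against 3.76% and 17.7% of all genes. For the difference of the section effects it was 2.33% against 10.1%. With age on wild-type and APdE9 sections 11.6% and 10.5% of the 86 were called, against 30.1% and 23.5%. Among the uncalled complex I accessory subunits Ndufb10 had the largest section difference in adult cells, at 0.51 ± 0.19 (adjusted p = 0.0895), followed by Ndufa8 at 0.44 ± 0.15 (adjusted p = 0.0639), Ndufb4 at 0.35 ± 0.15 (adjusted p = 0.123) and Ndufb1 at 0.32 ± 0.10 (adjusted p = 0.0515). Ndufb10 read -0.53, -0.43 and 0.0011 on wild-type and 0.036, 0.45 and 0.072 on APdE9 arrays. Of the 28 accessory subunits 25 lay above 0 there, against 5 of the 8 assembly factors, where Ndufaf7 was lowest at -0.40 ± 0.15 (adjusted p = 0.0901). In complex III all 8 genes lay above 0, from Uqcrc2 to Uqcrc1, and Uqcrh, the hinge subunit beside cytochrome c1, was at 0.26 ± 0.10 (adjusted p = 0.0846). The general complex IV subunits ran from -0.26 for Cox7c to 0.22 for Cox6a1, with Cox5a and Cox5b at 0.17 ± 0.10 and 0.021 ± 0.065.

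In ATP synthase the small F1 subunits delta and epsilon, Atp5d and Atp5e, were at 0.36 ± 0.12 (adjusted p = 0.0556) and 0.35 ± 0.17 (adjusted p = 0.193) for the section in adult cells, while the gamma subunit of the rotor, Atp5c1, was at -0.012 ± 0.24 (adjusted p = 0.982). The 3 genes of the c-ring, Atp5g1, Atp5g2 and Atp5g3, were at 0.15 ± 0.10, -0.0049 ± 0.10 and 0.11 ± 0.069, although they encode the same mature protein. The stalk subunits Atp5o and Atp5pb were at -0.048 ± 0.17 and -0.028 ± 0.075, beside 0.23 ± 0.10 (adjusted p = 0.142) for Atp5j. In the difference of the section effects Atp5d was at 0.42 ± 0.17 (adjusted p = 0.139) and did not pass. The 95% interval of the section difference lay within 0.5 log2 of 0 for 57 of the 86 genes in adult cells.

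Of the 48 genes with several probe sets, the probe sets differed by over 0.5 log2 in 6 genes for the section in adult cells and in 6 for age on wild-type sections. They did so in none for the section in neonatal cells, in 3 for age on APdE9 sections and in 8 for the difference of the section effects. For Ndufs4 the adult section difference was -0.12 to 0.65 over 4 probe sets, and for Atp5a1 it was -0.61 to 0.072 over 3. A further 10 probe sets that name a member together with another gene were not used.

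Other mitochondrial genes were read from lists of the same functions. Of 76 mitochondrial ribosomal proteins, which make the subunits encoded in mitochondrial DNA, 11 rose and none fell for the section in adult cells, with a median of 0.20 against 0.18 for the 86 genes. Mrps6 was at 1.05 ± 0.083 (adjusted p = 4.33e-06) and Mrps18a at 0.96 ± 0.14 (adjusted p = 0.000456). Their mean was -0.27, -0.13 and 0.0022 on the adult wild-type arrays and -0.018, 0.11 and 0.14 on the APdE9 ones, so array 1 was lowest in each group as for the 86 genes. With age on wild-type sections 1 rose and 7 fell, and on APdE9 sections 6 rose and none fell. In neonatal cells none of the 76 was called.

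Of 3 cytochrome c and c1 genes 2 rose in adult cells on APdE9 sections, Cyc1 and the electron carrier Cycs at 0.35 ± 0.10 (adjusted p = 0.0297). Of 7 complex II genes 1 rose there, the iron-sulfur subunit Sdhb at 0.39 ± 0.12 (adjusted p = 0.0405), and none was called in another comparison. Of 23 assembly factors of complexes III and IV 3 rose and 2 fell. Coa5, needed to build complex IV, was at -0.52 ± 0.093 (adjusted p = 0.00197), Ttc19 of complex III at -0.46 ± 0.11 (adjusted p = 0.0148), and the copper chaperone Sco2 at 0.39 ± 0.11 (adjusted p = 0.0287). Of 9 complex I assembly factors outside the symbol rule 1 fell, Dmac1 at -0.37 ± 0.11 (adjusted p = 0.0362), and of 5 ATP synthase assembly factors 1 fell, Tmem70 at -0.42 ± 0.10 (adjusted p = 0.0134). With age on wild-type sections Tmem70 rose, at 0.85 ± 0.10 (adjusted p = 3.5e-05), and Fmc1 fell, at -0.90 ± 0.16 (adjusted p = 0.00103).

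Among 15 regulators of mitochondrial biogenesis 2 rose and 1 fell for the section in adult cells. Tfb1m, a mitochondrial ribosomal RNA methyltransferase, was at -1.19 ± 0.12 (adjusted p = 2.81e-05) and Polrmt, the mitochondrial RNA polymerase, at 0.56 ± 0.11 (adjusted p = 0.00321). Ppargc1a, the coactivator PGC-1alpha that drives mitochondrial biogenesis, was the called regulator with the largest change with age, at -1.09 ± 0.17 (adjusted p = 0.000373) on wild-type and -1.55 ± 0.17 (adjusted p = 2.65e-05) on APdE9 sections, 2 comparisons that share no array. Of the 15 regulators 5 rose and 1 fell on wild-type, and 2 rose and 2 fell on APdE9 sections. Tfb2m, a mitochondrial transcription factor, rose on both, at 0.66 ± 0.088 (adjusted p = 9e-05) and 0.46 ± 0.088 (adjusted p = 0.00216). Gabpb1, a subunit of the ETS factor GABP, rose on wild-type sections, at 0.67 ± 0.18 (adjusted p = 0.0111), and Polrmt on APdE9 sections, at 0.46 ± 0.11 (adjusted p = 0.0073). Tfb1m rose on wild-type sections, at 0.56 ± 0.12 (adjusted p = 0.00319), and fell on APdE9 sections, at -0.75 ± 0.12 (adjusted p = 0.000532). Of 17 tricarboxylic acid cycle genes 3 fell for the section in adult cells, led by Pdha1 of pyruvate dehydrogenase at -0.67 ± 0.11 (adjusted p = 0.000884), while with age on wild-type sections 6 rose and 1 fell. The fall was in Pcx, pyruvate carboxylase of astrocytes, at -1.80 ± 0.11 (adjusted p = 1.15e-07). Pcx also fell for the section in neonatal cells, at -0.99 ± 0.11 (adjusted p = 0.000803). Of 20 outer membrane, import and carrier genes 1 rose for the section in adult cells, Vdac2 at 0.34 ± 0.067 (adjusted p = 0.00378), and 6 rose with age on wild-type sections.

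Of 20 glycolysis genes 8 fell and 3 rose with age on wild-type sections, and 8 fell and 2 rose on APdE9 sections. The falls were led by Aldoc, the aldolase of astrocytes and one of the markers above, at -4.97 ± 0.078 and -3.59 ± 0.078, and by Ldhb, a lactate dehydrogenase, at -1.41 ± 0.072 and -1.21 ± 0.072. For the section in adult cells 2 rose and 2 fell, with Tpi1 at -0.44 ± 0.083 (adjusted p = 0.00296), and in neonatal cells 3 fell, with Pfkm at -0.57 ± 0.087 (adjusted p = 0.00372). Muscle markers, read because Cox7a1 and Cox6a2 are muscle isoforms, had 2 of 8 higher and none lower with age on wild-type sections, where Cox7a1 fell. Their median was 0.059, and over all genes 14.9% rose and 15.2% fell there. The part of muscle cells in the Cox7a1 values was not tested.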

How the data were processed

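Per the labels, RNA of 12 pooled samples in 4 groups of 3 was hybridised to one-colour Affymetrix arrays. Per the submitters' processing notes the authors computed the signals with RMA, with no version given. The deposited values of 8 arrays, taken as log2, were used as they are. The deposited columns of the other 4 (neonatal wild-type arrays 1 and 3, neonatal APdE9 array 2, adult wild-type array 2) hold 6 values above 100 in size that lost their decimal point, none in a member, and are in that form a score. With the 6 set to missing they were used as log2 values like the rest. For the array data no genome build was given in the sources used here, while the promoter stretches are on build GRCm38.p6. In all 45095 complete probe sets the median over arrays was 0 within 1e-06.

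Of 45101 probe sets 64 controls were left out. The 34945 with a single gene were averaged to 18194 genes, with names from the platform annotation. limma 3.58.1 in R 4.3.3 was fitted to the 4 groups together (8 residual and 3.966 prior degrees of freedom) with Benjamini-Hochberg adjustment over all genes, and tested on simulated data. The members and lists were chosen with earlier results of these data known. Genes named were, for each comparison, up to 10 called members with the largest rise and 10 with the largest fall, the isoform pairs, 6 core subunits, up to 4 called genes of each other list and the 3 genes most like Cox6b2; other members could be named with their values.

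Same-numbered arrays deviated together over all genes in the neonatal section comparison (correlations 0.305, 0.147 and 0.518). The age comparison on APdE9 sections gave 0.46, 0.206 and 0.473, so the replicate block, judged over all genes, applies to both. The replicate numbers come from the labels. Over the members alone the neonatal section comparison gave -0.571, -0.0073 and 0.294, and the age comparison on APdE9 sections 0.046, -0.11 and 0.29. Same-numbered arrays therefore did not all deviate together in the members, and those numbered 1 deviated in opposite directions in the neonatal section comparison. Alternatives were the normalization, centring, array weights, the block, a robust prior, fewer arrays, probe set rules, restored decimal points and a threshold of 0.01. The filter on dim probes was not run, since centred values hold no level. The number of arrays limits the precision.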

Additional observations from a re-analysis of the deposited data

Results flagged for a closer look

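The section effect of Uqcrc1 differed between adult and neonatal cells by 0.99 log2 (limma adjusted p = 0.00181), since the gene fell on APdE9 sections in neonatal cells and rose in adult cells. The section effect of Ndufv3 differed by -0.55 log2 (adjusted p = 0.0369), with a fall in adult cells and a value of 0.12 in neonatal cells that was not called.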

How the results depend on the processing

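The calls rest on 3 pools against 3, and 11 of the 33 were kept under every alternative run: Uqcrc1, Ndufs7 and Cox6b2 for the section in adult cells, Uqcrc1 in the difference of the section effects, Uqcrc1, Cox6c, Cox7a1 and Ndufc2 for age on wild-type and Atp5b, Atp5j and Cox6b2 for age on APdE9 sections. The 5 tests compare the same 4 groups, so calls of 1 gene in several tests are not separate evidence. All 3 Uqcrc1 calls use the adult wild-type arrays, and both Cox6b2 calls use the adult APdE9 arrays. Leaving out 1 array at a time gave 0 to 1 calls for the section in neonatal cells, 4 to 16 in adult cells, 1 to 2 in the difference of the section effects, 5 to 12 for age on wild-type and 5 to 11 for age on APdE9 sections. Array weights gave 3, 24, 8 and 25 calls in the first 4 of these. A threshold of 0.01 left 0, 3, 1, 4 and 3 calls in the 5. With only the arrays numbered 2 and 3, chosen after the data were seen, 3, 1, 5 and 5 calls were left outside the section in neonatal cells, where the median of the 86 genes was -0.058. With only the arrays compared the section in neonatal cells had 0 and age on APdE9 sections 5 calls. With the probe set of the largest SD the section in neonatal cells had 0 calls and the difference of the section effects 4. Quantile normalization and median centring each left 6 calls for the section in adult cells. Apart from the replicate block, given next, no other alternative moved a count past 1.5 times or a median past the spread between arrays. The cause of these shifts was not tested. Counts over all genes under these alternatives are not given here, so the shifts cannot be called particular to the 86 genes. Of single-gene values, Ndufa12 with age on wild-type sections turned to 0.28 with the probe set of the largest SD, and Ndufb8 with age on APdE9 sections to -0.11 with RefSeq probe sets, an alternative chosen after the data were seen. The counts of 0 came from limma, and in neonatal cells 6 genes had an unadjusted p under 0.05.

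With the replicate number as a block, age on APdE9 sections had 14 calls, and the section in neonatal cells 1. Over all genes, same-numbered arrays did not all deviate together for the section in adult cells (correlations 0.348, -0.148 and 0.497). Nor did they for age on wild-type sections (0.404, 0.025 and 0.405). In the same order, the block gave 16 and 13 calls there. In the difference of the section effects it gave 3.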
